A study of Mus musculus with 7 samples.

Results

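The genes examined were 8 of the 17422 genes in the deposited tables: the INK4 inhibitors Cdkn2a, Cdkn2b, Cdkn2c and Cdkn2d, the KIP inhibitors Cdkn1b and Cdkn1c, and Mtap and Gm12606, which both lie downstream of Cdkn2a on mouse chromosome 4. They were matched by symbol, and all 8 were present with a mean of at least 1 CPM (the reads of a gene scaled to a common library size) over the 7 libraries. The set was selected on log2 CPM differences between the glioma groups that were already known, those of Cdkn2a and Gm12606, and completed by gene family and position, so the members' own levels are given as a description, with standard errors and without p-values.

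The RNA came from 6 high-grade gliomas of the mouse, sorted for DsRed, and from 1 culture of neural progenitor cells, all of the Balb/c strain. Neural precursors from embryonic day 14 were transduced with retroviral vectors carrying an oncogene and the red fluorescent protein DsRed, kept in culture with basic FGF and EGF for 10 days, and grafted at 20000 cells into the brains of adult mice. By their labels, the 3 gliomas labelled EGFRvIII arose from Ink/Arf -/- precursors given a truncated, constitutively active EGF receptor, and the 3 gliomas labelled PDGF-B from wild type precursors given a platelet-derived growth factor ligand. The culture, labelled as wild type and transduced with PDGF-B, is 1 library without a replicate. Each genotype is labelled with its own vector, so genotype and oncogene cannot be told apart in the glioma comparison. The sources used here do not say which exons the Ink/Arf deletion removes.

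INK4 proteins bind CDK4 and CDK6 and keep them from pairing with D-type cyclins, which leaves the retinoblastoma protein active and holds cells before S phase. KIP proteins bind cyclin-CDK complexes more broadly and also act on CDK2. Cdkn2a encodes a pair of unrelated tumour suppressors, the CDK inhibitor Ink4a and the Mdm2-binding protein Arf, from separate first exons spliced to a shared second exon read in different frames. Arf stabilises p53 by holding Mdm2 back. The locus is often deleted in human high-grade glioma together with CDKN2B and MTAP.

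In GRCm38 (the mm10 build), Cdkn2a spans chr4:89274471-89294653 on the minus strand. Its upstream first exon (Arf) lies 12.1 kb before the downstream one (Ink4a). The 2 annotated transcripts share 575 exonic bases, with 320 bases found in the upstream form alone and 277 in the downstream form alone. The deposited values are per gene, so Ink4a and Arf transcripts cannot be told apart. Cdkn2b (chr4:89306299-89311039, minus strand) ends 11.6 kb upstream of Cdkn2a. Gm12606 (chr4:89235699-89273403, minus strand), annotated as a long intergenic noncoding RNA, begins 1067 bases beyond the 3′ end of Cdkn2a and is transcribed in the same direction. Its annotation overlaps no other gene of that release. Mtap (chr4:89137122-89181081, plus strand), which encodes the methylthioadenosine phosphorylase of the methionine salvage pathway, lies another 54.6 kb away.

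**Figure D1:**
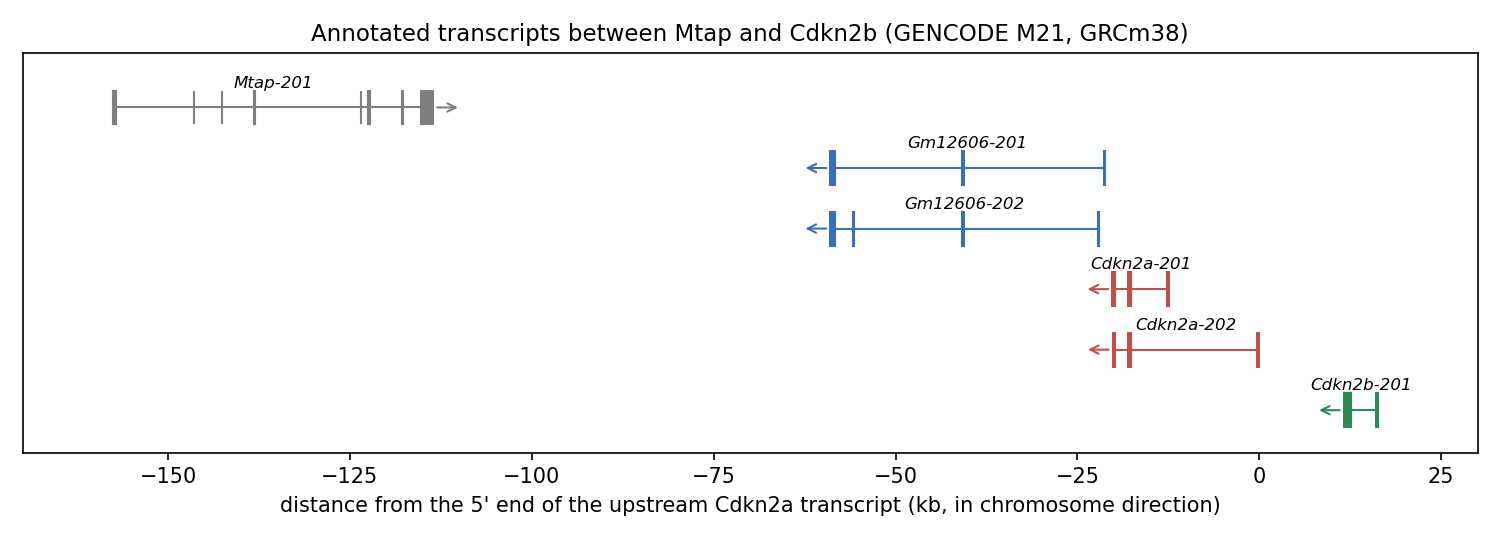
Annotated transcripts between Mtap and Cdkn2b, drawn to scale; the x axis gives the distance in kb from the 5′ end of the upstream Cdkn2a transcript, boxes are exons and arrows show the direction of transcription. Gm12606 begins 1067 bases beyond the 3′ end of Cdkn2a, on the same strand.

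The promoters of Cdkn2a and Cdkn2b are shown because the gene values of Cdkn2a sum over 2 separate promoters. Each is the RefSeq window of GRCm38.p6 from 250 bases before to 50 bases after a start, written 5′ to 3′ on the minus strand. Capitals mark the GC box GGGCGG and the E2F words TTTCCCGC, TTTCGCGC, TTTGCCGC and TTTGGCGC, each searched on both strands; no GC box overlapped an E2F word.
Cdkn2a, upstream (Arf) promoter, chr4:89294570-89294869: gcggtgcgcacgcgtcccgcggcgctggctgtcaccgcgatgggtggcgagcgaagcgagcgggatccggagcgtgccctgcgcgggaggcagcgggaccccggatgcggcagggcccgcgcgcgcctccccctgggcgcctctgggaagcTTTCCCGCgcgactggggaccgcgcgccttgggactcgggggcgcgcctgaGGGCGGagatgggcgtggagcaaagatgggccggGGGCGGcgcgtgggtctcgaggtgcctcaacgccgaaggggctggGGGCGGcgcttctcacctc
Cdkn2a, downstream (Ink4a) promoter, chr4:89282143-89282442: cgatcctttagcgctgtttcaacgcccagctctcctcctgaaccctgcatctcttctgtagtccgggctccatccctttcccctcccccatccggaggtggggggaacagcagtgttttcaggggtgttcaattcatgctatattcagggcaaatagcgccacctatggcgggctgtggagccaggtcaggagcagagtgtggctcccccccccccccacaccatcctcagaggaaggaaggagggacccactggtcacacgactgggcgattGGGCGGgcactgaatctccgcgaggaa
Cdkn2b promoter, chr4:89310983-89311282: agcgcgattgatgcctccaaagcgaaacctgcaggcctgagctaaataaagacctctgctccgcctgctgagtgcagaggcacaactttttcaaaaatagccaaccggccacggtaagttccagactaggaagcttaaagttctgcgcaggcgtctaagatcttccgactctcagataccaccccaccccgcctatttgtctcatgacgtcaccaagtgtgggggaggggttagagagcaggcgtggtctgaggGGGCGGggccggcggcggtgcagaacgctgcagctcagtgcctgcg
The upstream Cdkn2a window held 3 GC boxes and 1 E2F word, and the downstream window and that of Cdkn2b held 1 GC box each and no E2F word. Over all 32851 promoter windows of the table, 35.7% held a GC box and 2.26% an E2F word. Such a match is a description of letters, not of a bound site.

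The 2 annotated 5′ ends of Gm12606 are shown because this RNA had the most uneven level of the members. Each line gives the first exon in lower case and then, in capitals, the first 30 bases of the second exon (chr4:89253830-89254080), in which both transcripts join. They come from the GENCODE M21 transcripts of GRCm38, minus strand.
Gm12606, transcript with the upstream first exon, chr4:89273257-89273403: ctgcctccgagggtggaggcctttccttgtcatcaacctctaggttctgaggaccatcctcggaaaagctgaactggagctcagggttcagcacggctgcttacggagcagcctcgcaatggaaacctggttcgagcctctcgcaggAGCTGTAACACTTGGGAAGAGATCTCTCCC
Gm12606, transcript with the downstream first exon, chr4:89272432-89272587: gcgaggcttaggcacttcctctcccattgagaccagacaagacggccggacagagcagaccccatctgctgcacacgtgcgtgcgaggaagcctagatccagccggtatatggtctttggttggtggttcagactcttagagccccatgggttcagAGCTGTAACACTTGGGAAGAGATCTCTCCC
The transcripts share 908 exonic bases, and their level was summed in the deposited value.

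Recovered depth ranged from 32513298 to 39061823 reads per library. The driver genes did not match the labels of any of the 6 gliomas. Egfr stood at 25.6 to 41.2 CPM in those labelled EGFRvIII and at 3594 to 5109 CPM in those labelled PDGF-B, with 282 CPM in the culture. Pdgfb stood at 277 to 386 CPM in the gliomas labelled EGFRvIII and at 1.95 to 4.88 CPM in those labelled PDGF-B, with 245 CPM in the culture. Every direction below therefore refers to libraries as labelled, and none was moved to another group. The oligodendrocyte precursor markers Pdgfra, Cspg4, Olig1, Olig2 and Sox10 held 0.408% to 0.509% of all CPM in the gliomas labelled EGFRvIII, 0.548% to 1.03% in those labelled PDGF-B and 0.176% in the culture. The neural stem list of 5 held 0.0809% to 0.107% of CPM in the gliomas labelled EGFRvIII, 0.0648% to 0.129% in those labelled PDGF-B and 0.471% in the culture. The sorted fractions of the gliomas also held RNA of microglia and macrophages. That list of 14 markers made up 0.548% to 1.21% of CPM in the gliomas labelled EGFRvIII, 0.0448% to 0.153% in those labelled PDGF-B and 0.000733% in the culture, where C1qb, Trem2 and Tyrobp, 3 of the 14, were at 0. C1qa and C1qb, complement genes with the highest level per kb of exon in that list by the mean over the 6 gliomas, stood at 1592 ± 1200 and 1314 ± 987 CPM in the gliomas labelled EGFRvIII and 119 ± 87.2 and 95.8 ± 63.1 CPM in those labelled PDGF-B (SD, n = 3 each). In these bulk samples, fewer cells of a type and less RNA per cell cannot be told apart. The part of this RNA in the members' levels was not tested.

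Cdkn2a, the gene targeted by the Ink/Arf genotype, was present in every library and was not lower in the gliomas labelled Ink/Arf -/-. It stood at 22.7, 26.1 and 11.1 CPM in replicates 1 to 3 labelled EGFRvIII, from 790, 874 and 409 recovered reads. In those labelled PDGF-B, which the labels give as wild type, it stood at 3.52, 2.94 and 4.99 CPM, from 121, 97 and 178 reads. The culture held 10.7 CPM. The glioma groups did not overlap, and the lowest library labelled EGFRvIII was close to the culture, while all 3 libraries labelled PDGF-B lay below it. The means were 19.98 ± 7.84 CPM in the gliomas labelled EGFRvIII and 3.82 ± 1.05 CPM in those labelled PDGF-B (SD, n = 3 each), a ratio of 5.23. On the deposited log2 scale the difference was 2.31 ± 0.39 (SE), and it ranged from 2.08 to 2.69 when 1 glioma was left out in turn. Against the single culture library the log2 difference was 0.81 ± 0.55 (SE) for the gliomas labelled EGFRvIII and -1.51 ± 0.55 (SE) for those labelled PDGF-B. Reads from exons that a deletion leaves in place would be counted to the same gene, so the values do not show which product was made. Egfr and Pdgfb did not match the labels of these gliomas, and whether the genotype labels hold was not tested.

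Gm12606, the noncoding RNA next to Cdkn2a, had the opposite pattern and was nearly absent outside the gliomas labelled PDGF-B. It had 0, 1 and 1 reads in replicates 1 to 3 labelled EGFRvIII, against 648, 549 and 1141 reads in those labelled PDGF-B, and 0 reads in the culture. Its level in the gliomas labelled PDGF-B was 22.5 ± 8.27 CPM (SD, n = 3), at 18.9, 16.6 and 32.0 CPM in replicates 1 to 3. More than 1 read was thus found in the 3 libraries labelled PDGF-B alone, and the groups did not overlap. Summed over libraries, 2 reads against 2338 gave a depth-corrected ratio of 0.000839 for EGFRvIII over PDGF-B, with an exact 95% counting interval of 0.000102 to 0.00304. Against the culture, the gliomas labelled PDGF-B were at least 259-fold higher, taking 3 reads as the limit that a count of 0 allows; intervals and limits cover counting error only. At most 2 reads in each of the other 4 libraries together with at least 10 CPM in each glioma labelled PDGF-B was met by 1 of 17422 genes, Gm12606 (0.00574%), under thresholds chosen after its values were seen. This count thus depends on the thresholds. The processed pseudogene Gm10182, at 0 in the same 4 libraries, missed only the limit of 10 CPM. It stood at 11.2, 5.60 and 18.8 CPM in replicates 1 to 3 labelled PDGF-B. Per kb of exon, Gm12606 was 4.72, 4.99 and 5.64 times as high as Cdkn2a in replicates 1 to 3 labelled PDGF-B, and at most 0.00215 times in those labelled EGFRvIII.

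**Figure D2:**
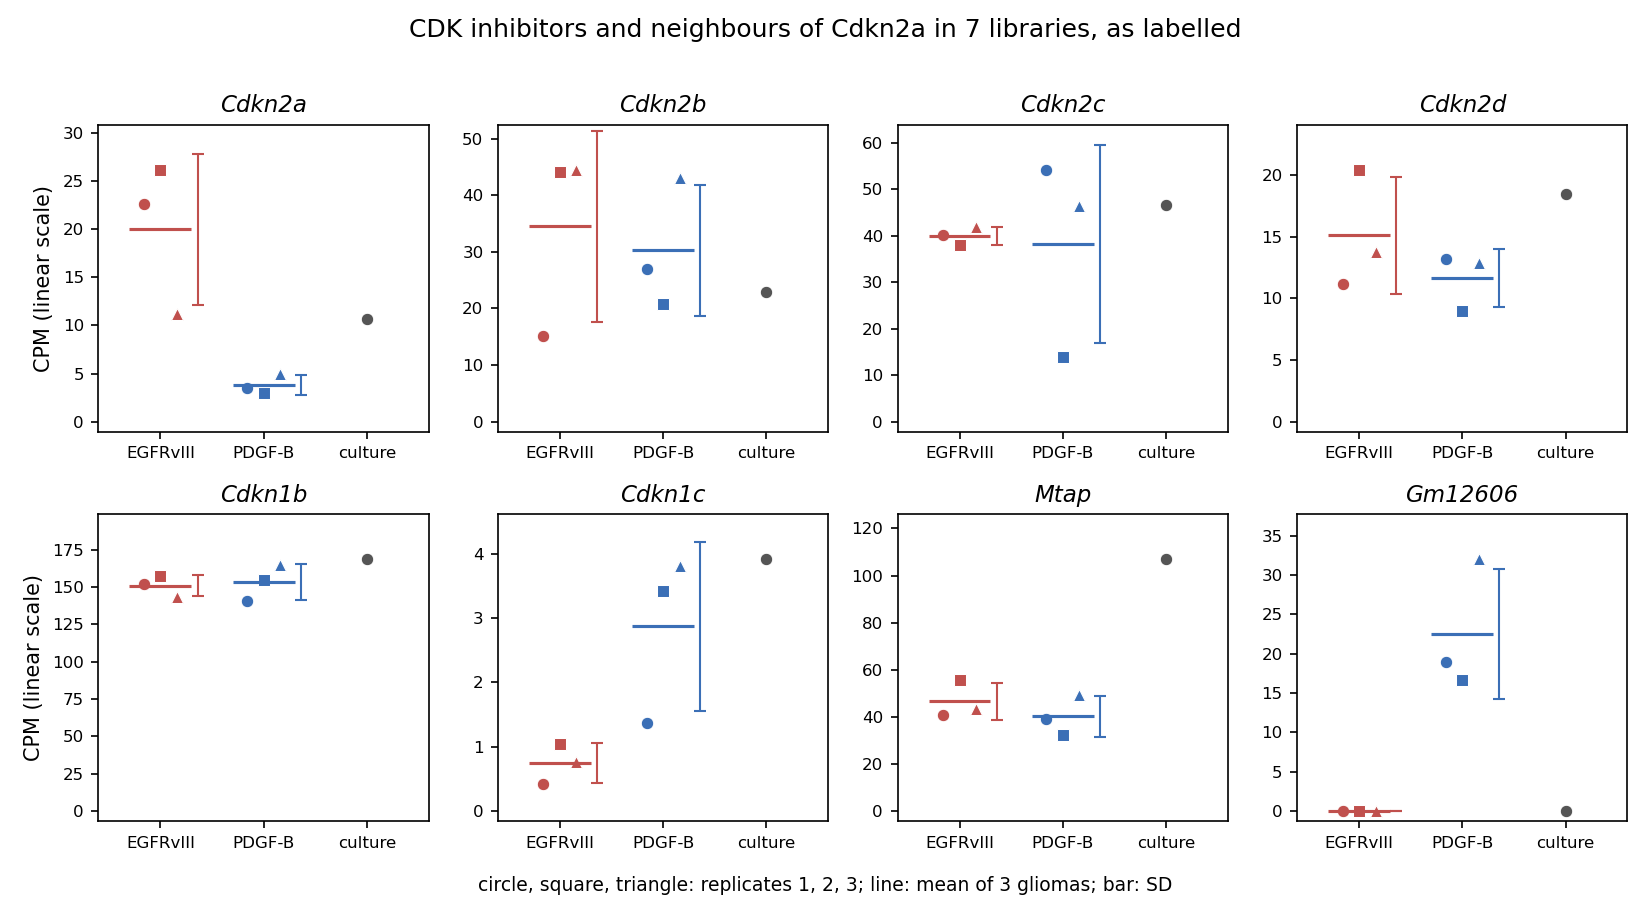
Level of each member in each library, in CPM on linear axes; symbols are replicates, lines are means of 3 gliomas and bars are SD, with the single culture library at the right. Cdkn2a, Cdkn1c and Gm12606 are the members whose glioma groups do not overlap.

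Cdkn2b, which encodes the INK4 inhibitor induced by TGF-beta and lies 11.6 kb from Cdkn2a, did not share its pattern. It stood at 15.1, 44.1 and 44.4 CPM in replicates 1 to 3 labelled EGFRvIII, at 26.9, 20.8 and 43.1 CPM in those labelled PDGF-B and at 22.9 CPM in the culture. The groups overlapped, with replicate 1 labelled EGFRvIII the lowest of all 7 libraries and replicate 3 of each group near the top. The log2 difference was 0.10 ± 0.47 (SE), within the spread between replicates. It was 0.61 without replicate 1 labelled EGFRvIII. Without replicate 2 or 3 labelled EGFRvIII it was -0.16 in each case, and without replicate 2 labelled PDGF-B it was -0.14. Per kb of exon, Cdkn2a was 1.78, 0.703 and 0.298 times as high as Cdkn2b in replicates 1 to 3 labelled EGFRvIII, against 0.155, 0.168 and 0.137 times in those labelled PDGF-B and 0.552 times in the culture. The ratio varied widely among the gliomas labelled EGFRvIII and little among those labelled PDGF-B.

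Mtap, on the far side of Gm12606, was similar in the glioma groups and lower in all 6 gliomas than in the culture. It stood at 40.9, 55.5 and 43.5 CPM in replicates 1 to 3 labelled EGFRvIII, at 39.0, 32.1 and 49.2 CPM in those labelled PDGF-B and at 106.8 CPM in the culture. The log2 difference between the glioma groups was 0.23 ± 0.22 (SE). Against the culture it was -1.21 ± 0.31 (SE) for the gliomas labelled EGFRvIII and -1.43 ± 0.31 (SE) for those labelled PDGF-B, and both comparisons share the 1 culture library.

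Beyond the members, 10 other measured genes lay within 2 Mb of Cdkn2a, and limma called 0 of them between the glioma groups at an adjusted p under 0.05, beside 3.35% of all genes. Of these 10, 3 had an unadjusted p under 0.05, beside 16.7% of all genes, 2 had groups that did not overlap, beside 22.9%, and 1 was called with voom weights. Their median log2 difference was 0.09, beside 0.00 over all genes, and it ranged from -0.15 for the pseudogene Mrpl48-ps to 2.44 for Hacd4. Hacd4, a dehydratase of very long chain fatty acid synthesis 835.5 kb from Cdkn2a, stood at 29.1, 24.0 and 16.9 CPM in the gliomas labelled EGFRvIII and at 2.89, 2.55 and 9.61 CPM in those labelled PDGF-B (limma adjusted p = 0.0553). Its groups did not overlap. Focad, with a log2 difference of 0.52 ± 0.19 (SE, limma adjusted p = 0.234), was the other neighbour whose groups did not overlap. Elavl2, a neuronal RNA-binding protein gene 1956.1 kb away, had a difference of 1.15 ± 0.43 (SE, limma adjusted p = 0.243). The closest measured genes on the Cdkn2b side, the noncoding Gm12609 and Gm12610, had differences of -0.12 ± 0.79 and 0.11 ± 0.91 (SE) at means near 1 CPM. Klhl9, Dmrta1, Mllt3 and Gm26525 had differences of 0.00, -0.02, 0.06 and 0.94. Mllt3 and Hacd4 were called in the gliomas labelled EGFRvIII against the culture, with Mllt3 lower by a log2 difference of -0.97 (limma adjusted p = 0.0498) and Hacd4 higher by 3.85 (limma adjusted p = 0.02). Mllt3 was also lower in the gliomas labelled PDGF-B against the same culture library (-1.03, limma adjusted p = 0.0417). With voom weights none of the 10 was called in either comparison with the culture (0 and 0). Of all genes, limma called 9.55% for the gliomas labelled EGFRvIII and 9.45% for those labelled PDGF-B against the culture.

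**Figure D3:**
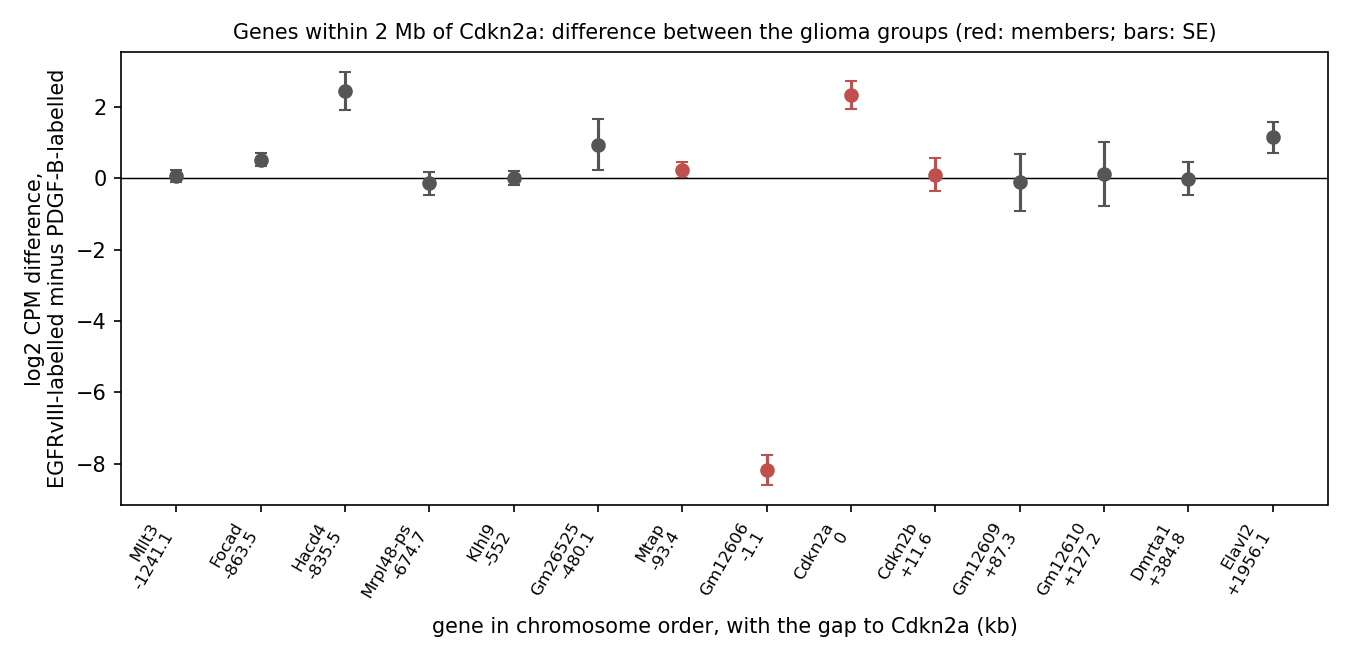
Difference in mean log2 CPM, EGFRvIII-labelled minus PDGF-B-labelled gliomas, for the 14 measured genes within 2 Mb of Cdkn2a in chromosome order; bars are SE, red marks members, and labels give the gap to Cdkn2a in kb. Cdkn2a at 2.31 and Gm12606 at -8.16 are adjacent, and Cdkn2b and Mtap on either side lie near 0; the value of Gm12606 depends on the prior count because 4 libraries are at or near 0 reads.

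Cdkn2c, an INK4 inhibitor known to restrain the oligodendrocyte lineage and neural progenitors, was even across libraries with 1 exception. It stood at 40.2, 38.0 and 41.8 CPM in replicates 1 to 3 labelled EGFRvIII, at 54.1, 14.0 and 46.4 CPM in those labelled PDGF-B and at 46.5 CPM in the culture. Replicate 2 labelled PDGF-B was the lowest library, and the groups overlapped. The log2 difference was 0.29 ± 0.48 (SE), and -0.33 without that library. In the same library the 20 mitosis genes averaged 3.10 log2 CPM and the 16 DNA replication genes 3.33 log2 CPM. In the other gliomas the mitosis genes averaged 5.46 to 5.81 log2 CPM among those labelled EGFRvIII and 5.89 and 5.90 among those labelled PDGF-B, and the DNA replication genes averaged 5.00 to 5.76 and 5.33 and 5.62. The culture stood highest in both lists, at 7.23 and 6.84 log2 CPM, without standing out in Cdkn2c. The part of cell division in the Cdkn2c level was not tested.

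**Figure D4:**
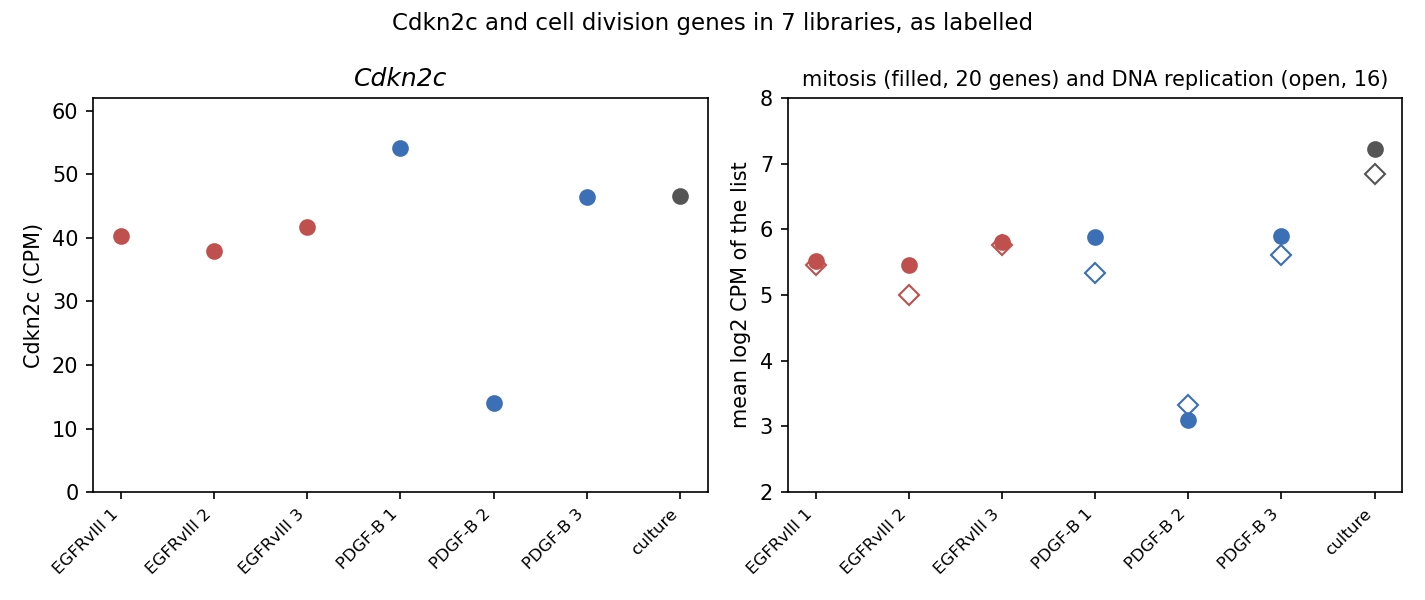
Left, Cdkn2c in CPM by library; right, the mean log2 CPM of 20 mitosis genes (filled) and 16 DNA replication genes (open diamonds) by library, coloured by labelled group. Replicate 2 labelled PDGF-B, at 14.0 CPM of Cdkn2c, is the lowest of the 7 libraries in all 3 measures.

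Cdkn2d, the remaining INK4 inhibitor (chr9:21288410-21291407), stood at 11.2, 20.4 and 13.7 CPM in replicates 1 to 3 labelled EGFRvIII, at 13.2, 8.96 and 12.8 CPM in those labelled PDGF-B and at 18.5 CPM in the culture. The groups overlapped, and the log2 difference was 0.35 ± 0.30 (SE). Cdkn1b (chr6:134920401-134925513), which encodes the p27 inhibitor that accumulates as oligodendrocyte precursors leave the cell cycle, was level across the libraries. It stood at 152, 157 and 143 CPM in the gliomas labelled EGFRvIII, at 141, 155 and 165 CPM in those labelled PDGF-B and at 168 CPM in the culture, with a log2 difference between the glioma groups of -0.02 ± 0.16 (SE).

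Cdkn1c (chr7:143458339-143461050), the imprinted KIP inhibitor, was the scarcest of the 6 inhibitors, and its glioma groups did not overlap. It had 14.7, 35 and 28 reads in replicates 1 to 3 labelled EGFRvIII, against 47, 113 and 136 reads in those labelled PDGF-B and 135 reads in the culture. The means were 0.744 ± 0.313 CPM in the gliomas labelled EGFRvIII and 2.87 ± 1.31 CPM in those labelled PDGF-B (SD, n = 3 each), with 3.91 CPM in the culture. The gap between the groups was narrow, with 1.05 CPM in replicate 2 labelled EGFRvIII and 1.37 CPM in replicate 1 labelled PDGF-B. The log2 difference was -1.82 ± 0.54 (SE). Against the culture it was -2.39 ± 0.75 (SE) for the gliomas labelled EGFRvIII and -0.57 ± 0.75 (SE) for those labelled PDGF-B. Of the 5 measured genes of its imprinted neighbourhood, from a list of 8, limma called 0 between the glioma groups, 1 had an unadjusted p under 0.05 and 0 were called with voom weights, with a median log2 difference of -0.27. The groups did not overlap for Osbpl5, at a log2 difference of -0.55 ± 0.22 (SE, limma adjusted p = 0.28), and Kcnq1ot1, the noncoding RNA of the imprinted domain, at -0.80 ± 0.40 (SE, limma adjusted p = 0.366). Over all genes, limma called 3.35%, 16.7% had an unadjusted p under 0.05 and 22.9% had groups that did not overlap. Cd81, the most abundant of the 5 per kb, stood at 544 ± 241 CPM in the gliomas labelled EGFRvIII and 544 ± 194 CPM in those labelled PDGF-B (SD, n = 3 each).

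Of the 8 members, 3 had glioma groups that did not overlap, as did 22.9% of all genes. Cdkn2a was higher in the gliomas labelled EGFRvIII without overlap, as were 12.6% of all genes, and Cdkn1c and Gm12606 were lower, as were 10.3%. Limma called 2, Cdkn2a higher and Gm12606 lower in the gliomas labelled EGFRvIII, against a background of 3.35% of all genes (2.63% higher and 0.717% lower). Gm12606 was called in all 13 alternatives and Cdkn2a in 6. Cdkn2a was not called in 7: without trend and robust moderation, with the replicate number as a block, and in each fit without 1 glioma other than replicate 3 labelled PDGF-B. Against the culture, 0 members were called for the gliomas labelled EGFRvIII (limma, background 9.55%, with 8.2% higher and 1.34% lower; 2 had an unadjusted p under 0.05 and 0 were called with voom weights). For those labelled PDGF-B 2 were called, Gm12606 higher and Mtap lower (background 9.45%, with 7.73% higher and 1.73% lower), and voom weights called 1. Mtap was called there in 6 of 12 alternatives, and not without trend and robust moderation, with voom weights, or without replicate 1 or 3 labelled EGFRvIII or replicate 1 or 2 labelled PDGF-B. Without replicate 2 labelled EGFRvIII or replicate 3 labelled PDGF-B, Mtap was also called lower in the gliomas labelled EGFRvIII against the culture. Because the members were chosen with these contrasts known, nothing is read from these counts. The median log2 difference of the members was 0.16 between the glioma groups, -0.19 for the gliomas labelled EGFRvIII against the culture and -0.54 for those labelled PDGF-B, beside 0.00, 0.01 and 0.04 over all genes.

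Levels of different genes were compared per kb of exon. In the gliomas labelled EGFRvIII the order of group means was Cdkn1b at 33.2 ± 1.56, Cdkn2b at 24.8 ± 12.1, Cdkn2a at 17.0 ± 6.69, Cdkn2c at 14.9 ± 0.714, Cdkn2d at 9.60 ± 3.02 and Cdkn1c at 0.365 ± 0.153 CPM per kb (SD, n = 3). In those labelled PDGF-B it was Cdkn1b at 33.7 ± 2.64, Cdkn2b at 21.8 ± 8.29, Cdkn2c at 14.2 ± 7.92, Cdkn2d at 7.40 ± 1.49, Cdkn2a at 3.26 ± 0.899 and Cdkn1c at 1.41 ± 0.643 CPM per kb (SD, n = 3). Among neighbours in the order of the gliomas labelled EGFRvIII, the means lay within their SD of each other except between Cdkn2c and Cdkn2d and between Cdkn2d and Cdkn1c. In the order of those labelled PDGF-B, they lay apart between Cdkn1b and Cdkn2b, between Cdkn2d and Cdkn2a and between Cdkn2a and Cdkn1c. Cdkn2a thus stood above Cdkn2c and Cdkn2d by its mean in the gliomas labelled EGFRvIII and below both in those labelled PDGF-B. In the culture the order was Cdkn1b at 37.0, Cdkn2c at 17.3, Cdkn2b at 16.5, Cdkn2d at 11.7, Cdkn2a at 9.11 and Cdkn1c at 1.92 CPM per kb.

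Cdkn1a, the p53-induced CIP inhibitor that is not among the 8 members, stood at 88.8, 453 and 117 CPM in replicates 1 to 3 labelled EGFRvIII, at 26.0, 28.6 and 69.2 CPM in those labelled PDGF-B and at 313 CPM in the culture. The groups did not overlap, but the log2 difference of 2.17 ± 0.65 (SE) did not pass the test (limma adjusted p = 0.142). Per kb, Cdkn1a made up 22.5% to 52.4% of the summed level of these 7 inhibitors in the gliomas labelled EGFRvIII, 8.16% to 16.5% in those labelled PDGF-B and 48.5% in the culture. The 4 INK4 genes together made up 33.3% to 50.4%, 39.4% to 56.7% and 30.1% of the same sum. The EGFRvIII library with the highest Cdkn1a, replicate 2, also had the highest share of microglia and macrophage markers, 1.21% of CPM. The culture, at 313 CPM of Cdkn1a, had 0.000733% of CPM in these markers. The part of those cells in the Cdkn1a level was not tested.

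**Figure D5:**
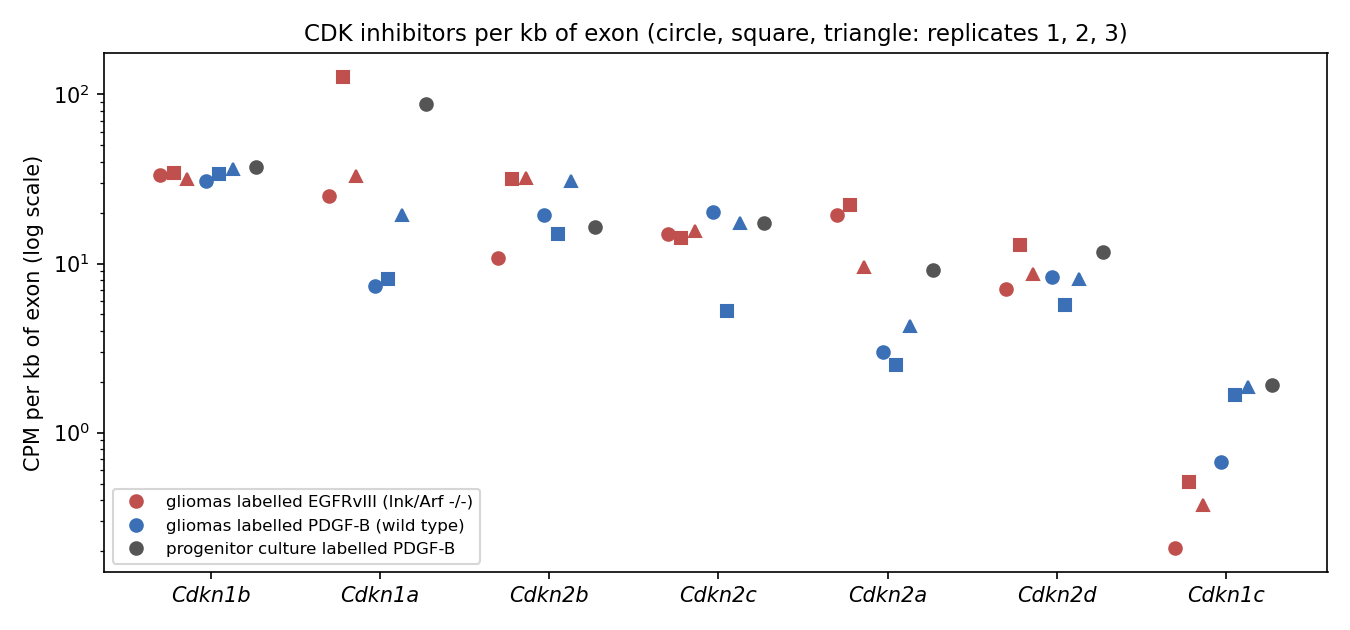
CPM per kb of exon of 7 CDK inhibitors on a log axis, 1 point per library, coloured by labelled group. Cdkn1b is level at 30.9 to 37.0 in all 7 libraries, and Cdkn2a, Cdkn1a and Cdkn1c are the genes whose glioma groups do not overlap.

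The genes on which these inhibitors act were described from lists. Over all genes, 3.35% were called between the glioma groups, 16.7% had an unadjusted p under 0.05 and the median log2 difference was 0.00. Of 16 cyclin, CDK, retinoblastoma family and E2F genes, 1 was called and 2 had an unadjusted p under 0.05, with a median of 0.23. It was Cdk6, the kinase partner of D-type cyclins that INK4 proteins bind, which was higher at 14.4 ± 2.91 CPM in the gliomas labelled EGFRvIII and 2.51 ± 1.83 CPM in those labelled PDGF-B, with 27.5 CPM in the culture (SD, n = 3 each, log2 difference 2.70 ± 0.49, SE, limma adjusted p = 0.0359). Its replicates did not overlap, at 11.2, 15.5 and 16.6 CPM in the gliomas labelled EGFRvIII against 1.42, 1.49 and 4.62 CPM in those labelled PDGF-B. When each of the 6 gliomas was dropped in turn, Cdk6 stayed called without replicate 3 labelled PDGF-B (limma adjusted p = 0.00304) and missed the threshold in the other 5 fits, with limma adjusted p from 0.0939 to 0.15. Ccnd1, the most abundant D-type cyclin, stood at 1534 ± 183 CPM in the gliomas labelled EGFRvIII and 1349 ± 270 CPM in those labelled PDGF-B (SD, n = 3 each), and Cdk4 at 316 ± 54.8 and 215 ± 51.4 CPM (SD, n = 3 each). Against the culture, E2f5 was called lower in the gliomas labelled EGFRvIII (log2 difference -1.03, limma adjusted p = 0.0458). In those labelled PDGF-B, Cdk6 (-3.64, limma adjusted p = 0.0202) and Ccne1 (-3.26, limma adjusted p = 0.0479) were called lower and Rbl2, a retinoblastoma family member, higher (1.07, limma adjusted p = 0.0494). Voom weights called 0 and 2 genes of this list in the comparisons of the gliomas labelled EGFRvIII and PDGF-B with the culture. Of all genes, limma called 9.55% and 9.45% in these comparisons.

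Of 16 genes of the Arf, Mdm2 and p53 pathway, 2 were called between the glioma groups, both higher in those labelled EGFRvIII, and 9 had an unadjusted p under 0.05, with a median log2 difference of 0.97. Over all genes, limma called 3.35% between the glioma groups and 16.7% had an unadjusted p under 0.05. Pmaip1, a BH3-only apoptosis gene induced by p53, stood at 25.1, 25.9 and 14.2 CPM in the gliomas labelled EGFRvIII and at 4.05, 3.54 and 3.22 CPM in those labelled PDGF-B (log2 difference 2.53 ± 0.31, SE, limma adjusted p = 0.0245). Eda2r, a p53-induced death receptor, stood at 48.1, 125 and 52.96 CPM in the gliomas labelled EGFRvIII and at 15.0, 7.24 and 17.9 CPM in those labelled PDGF-B (log2 difference 2.45 ± 0.47, SE, limma adjusted p = 0.04). Neither gene's groups overlapped, and both missed the threshold in the same 5 leave-one-out fits as Cdk6, with limma adjusted p up to 0.132 for Eda2r and 0.0914 for Pmaip1. Against the culture, 6 of the 16 were called lower in the gliomas labelled PDGF-B, namely Ccng1, Eda2r, Pmaip1, Aen, Sesn2 and Trp53inp1, with log2 differences from -3.56 to -1.92 (3 genes of the list were called with voom weights). For the gliomas labelled EGFRvIII 0 were called by limma, with 3 at an unadjusted p under 0.05 and 0 with voom weights. Over all genes, limma called 1.73% lower for the gliomas labelled PDGF-B and 9.55% in either direction for those labelled EGFRvIII. For those labelled EGFRvIII, 23.9% of all genes had an unadjusted p under 0.05. The 2 contrasts share the culture library.

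Of 16 measured repressors of the locus, mostly Polycomb subunits, limma called 0 between the glioma groups (0 at an unadjusted p under 0.05 and 0 with voom weights, median log2 difference -0.13). Bmi1, the Polycomb subunit best known for silencing Ink4a and Arf, stood at 117 ± 4.68 CPM in the gliomas labelled EGFRvIII and 129 ± 5.36 CPM in those labelled PDGF-B, with 144 CPM in the culture (SD, n = 3 each). The differences of the 16 ran from -1.49 ± 0.88 (SE) for the scarce Tbx2 to 0.85 ± 0.53 (SE) for Id1. Of 4 activators, 0 were called by limma (1 at an unadjusted p under 0.05 and 0 with voom weights, median -0.14), and their differences ran from -0.39 ± 0.20 (SE) for Dmtf1 to 0.63 ± 0.23 (SE) for Ets2 (limma adjusted p = 0.229). Kdm6b, a histone demethylase, stood at 175 ± 45.6 and 171 ± 18.6 CPM (SD, n = 3 each). Of 12 genes of p27 and p57 turnover and control, 0 were called by limma (0 at an unadjusted p under 0.05 and 0 with voom weights, median 0.18); Skp1a, a subunit of the ligase that degrades p27, stood at 181 ± 53.9 and 177 ± 20.8 CPM (SD, n = 3 each). Ezh2, the Polycomb methyltransferase, and Id1 were called lower in both glioma groups against the shared culture. Ezh2 had log2 differences of -1.93 (limma adjusted p = 0.0290) and -1.82 (limma adjusted p = 0.0372) in the gliomas labelled EGFRvIII and PDGF-B, and Id1 of -4.37 (limma adjusted p = 0.0109) and -5.22 (limma adjusted p = 0.00707). Cbx2 was called lower in the gliomas labelled EGFRvIII (-1.75, limma adjusted p = 0.0417). Voom weights called 2 genes of this list for the gliomas labelled EGFRvIII in place of 3, and 1 for those labelled PDGF-B in place of 2. Of all genes, limma called 9.55% and 9.45% in these comparisons with the culture. No mitosis or DNA replication gene was called between the glioma groups (0 of 20 and 0 of 16 by limma, 0 and 0 at an unadjusted p under 0.05, 0 and 0 with voom weights), with medians of 0.64 and 0.74. These medians include replicate 2 labelled PDGF-B, whose list means were 3.10 and 3.33 log2 CPM. In replicates 1 and 3 labelled PDGF-B mitosis genes averaged 5.89 and 5.90 log2 CPM, above the 5.46 to 5.81 of those labelled EGFRvIII. DNA replication genes averaged 5.33 and 5.62 against 5.00 to 5.76. Mki67 stood at 413 ± 123 CPM in the gliomas labelled EGFRvIII and 377 ± 271 CPM in those labelled PDGF-B, and Pcna at 127 ± 6.66 and 87.2 ± 40.9 CPM (SD, n = 3 each). Of the further cell type lists given here, 0 of 6 endothelial, 0 of 5 mural, 0 of 5 neuron, 0 of 5 oligodendrocyte precursor and 0 of 5 neural stem genes were called by limma between the glioma groups (4, 1, 2, 2 and 0 at an unadjusted p under 0.05, 0 in each with voom weights). All 14 microglia and macrophage genes were called higher (12 with voom weights). The astrocyte gene S100b (-2.29, limma adjusted p = 0.025), 1 of 6, was called lower, and the 5 T cell genes were not among the genes of the tables.

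The genes whose log2 CPM most resembled that of Cdkn2a over the 7 libraries, among 15162 genes with a mean of at least 1 CPM, were Snx5, Rnf149, Mpzl3 and the homeobox genes Hlx and Dlx6, with Pearson r from 0.984 to 0.978. Hlx stood at 23.0, 20.8 and 11.4 CPM in the gliomas labelled EGFRvIII, at 2.71, 3.58 and 3.78 CPM in those labelled PDGF-B and at 10.6 CPM in the culture. For Gm12606 they were the processed pseudogene Gm10182, the ligand gene Bmp4, Cd248, the pseudogene Gm6728 and Bfsp2, with r from 0.996 to 0.971. Gm10182, on chromosome 9, stood at 0 in the gliomas labelled EGFRvIII, at 11.2, 5.60 and 18.8 CPM in those labelled PDGF-B and at 0 in the culture; reads of a processed pseudogene can be shared with its parent gene, so its level is uncertain. Bmp4 stood at 0.172 to 0.418 CPM in the gliomas labelled EGFRvIII, at 2.505, 3.70 and 5.18 CPM in those labelled PDGF-B and at 0.260 CPM in the culture. These correlations describe 7 points that share 3 groups.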

How the data were processed

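Sorted cells of 6 gliomas and 1 culture were profiled by RNA sequencing on a BGISEQ-500, per the labels. The deposited values are log2 CPM: so say the file headers, except that of EGFRvIII replicate 3, which gives no unit but has the same lowest value. STAR, edgeR and mm10 are named in the submitters' processing notes without versions; the sources used here do not give the quantifier, scaling, gene filter, strandedness or which of poly(A) selection and rRNA removal was used. The values carry a prior of 2 reads. Subtracting the shared floor of -4.12 gave the CPM printed here, and dividing by the CPM of 1 read gave recovered reads, which were multiples of 0.01 read, within 0.001 read, under 50 reads and thus estimates.

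Symbols, coordinates and union exon lengths came from GENCODE M21 (GRCm38), which matched 17254 of 17422 IDs. Limma 3.58.1 in R 4.3.3 was run on the deposited log2 values with trend and robust moderation: on the 6 gliomas for the glioma comparison, and on all 7 libraries in 3 groups against the culture, whose lone library is assumed to vary like the gliomas (4 residual degrees of freedom each). P-values were two-sided and adjusted by Benjamini-Hochberg over all 17422 genes, and genes were called at 0.05. The fit was also run on simulated counts with the same dispersion for every gene, as a check of the code. That run does not show how the fit performs on these gliomas. The members and lists were chosen with earlier results of these data known. Named genes were the members, the drivers, up to 4 called genes per list and direction, the most abundant gene per kb of lists without calls, genes within 2 Mb of Cdkn2a, the 5 most similar patterns to Cdkn2a and to Gm12606, and the 2 microglia markers of highest level per kb over the gliomas. Genes called against the culture, Cdk4 and the extreme or non-overlapping genes of lists without calls were named in addition, after their values were seen. Alternatives covered scaling, pseudocount, a filter, moderation, voom weights, a replicate block and leaving out each glioma. The result of 1 marker list is not reported here.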

Additional observations from a re-analysis of the deposited data

How the results depend on the processing

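Between the glioma groups 583 genes were called. The count was 224 without trend and robust moderation and 4 to 1282 when 1 glioma was left out, with 4 and 7 without replicates 1 and 2 labelled PDGF-B, 1282 without replicate 3, and 21, 15 and 7 without replicates 1 to 3 labelled EGFRvIII. With the replicate number as a block 18 genes were called, the call of Cdkn2a ended, and so did those of Cdk6, Eda2r and Pmaip1 (limma adjusted p = 0.0595, 0.108 and 0.0556). Same-numbered gliomas deviated from their group means with correlations of 0.185, -0.045 and -0.107. Between gliomas of differing number the correlations ran from -0.273 to 0.227. The labels state no pairing, and so few values cannot decide whether the numbers pair the samples. Without trend and robust moderation the calls of Cdkn2a, Cdk6 and Eda2r also ended (limma adjusted p = 0.0565 and 0.0727). Against the culture, voom weights called 721 genes in place of 1663 for the gliomas labelled EGFRvIII and 553 in place of 1647 for those labelled PDGF-B, and leaving out 1 glioma gave 1058 to 2030 and 854 to 2303. The lowest of these were 1084 and 1058 without replicates 1 and 3 labelled EGFRvIII in the first comparison, and 1087 without replicate 3 labelled EGFRvIII and 854 and 1054 without replicates 1 and 2 labelled PDGF-B in the second. The cause of these changes was not tested.

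The Cdkn2a difference kept its direction in all 13 alternatives (2.08 to 2.69) and its call in 6, with the same direction in all 13 for Cdkn2d, Cdkn1c and Mtap between the glioma groups. For Cdkn2a and Cdkn1c the direction could not have changed when 1 glioma was left out, because their groups did not overlap. The filter, the moderation change and the replicate block left their differences at 2.31 and -1.82. Little is therefore learned from their constant direction. Cdkn2b changed sign in 3 alternatives, Cdkn1b in 2 and Cdkn2c in 1, each within the spread between replicates. The Gm12606 difference ran from -9.51 with voom weights to -5.41 with a pseudocount of 0.5 CPM, since it depends on what is added to 0 reads. Quantile normalization moved the median of all genes to -0.20 for the gliomas labelled EGFRvIII against the culture, and library totals alone moved it to 0.15 for those labelled PDGF-B.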
